A study of Homo sapiens with 16 samples.

Results

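The D cyclins CCND1, CCND2 and CCND3, the MYC gene and the CDK inhibitors CDKN1A, CDKN1B, CDKN1C, CDKN2A, CDKN2B and CDKN2C were followed by name, 10 genes of the 19974 protein-coding gene records on chromosomes 1 to 22 and X. All 10 matched a RefSeq record (GRCh38.p14), and each was read over that record and 10 kb on either side. A gene counts as carrying a mark where at least 1 bp of a peak lies in this window. H3K27me3, the mark that Polycomb repressive complex 2 writes at silent genes, and H3K4me3, the mark of active and poised promoters, had been profiled by ChIPmentation, in which transposase tags immunoprecipitated chromatin. The cells were TKO, a plasma cell line derived from the KMS-11 myeloma line. All groups share the label KMS-11 WHSC1(+/-), WHSC1 being an older name of the methyltransferase gene NSD2. The 4 forms are plain TKO cells (TKO) and TKO cells that express wild type NSD2 (WT) or NSD2 with the substitution D1240A or F1295A. The sources used here do not give the vector, the level of each protein or the number of clones. Per form there were 2 H3K27me3 samples that share a peak list, 1 H3K4me3 sample with its own list, and 1 IgG sample, not analysed here. Every comparison therefore rests on 1 list per form and mark, with no replicate check and no test.

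D cyclins bind CDK4 and CDK6, and the complexes phosphorylate the retinoblastoma protein RB1, which releases E2F factors and lets a cell leave G1. MYC, a transcription factor that drives growth, induces D cyclins and represses several CDK inhibitors. INK4 inhibitors (CDKN2A, CDKN2B, CDKN2C) block CDK4 and CDK6, while CIP/KIP inhibitors (CDKN1A, CDKN1B, CDKN1C) bind a wider set of cyclin-CDK complexes. Myelomas commonly express a D cyclin at high level, and in tumours with the t(4;14) translocation, which KMS-11 carries at NSD2, it is often CCND2. In many tissues INK4 and CIP/KIP genes are held silent by Polycomb complexes.

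The genes fell on different sides of the marks, and for several it was a particular promoter that carried the mark. The RefSeq promoter table (GRCh38.p14) held 11 windows for 6 of the 10 genes, each from 250 bases before to 50 after a start site. 7 of them are shown because their marks differ within a gene or between forms. CG dinucleotides, which make up the CpG islands where both marks tend to lie, are in capitals. CDKN1A, chr6:36678464-36678763, plus strand, lay under H3K27me3 in TKO and WT. CCND3 outer promoter, chr6:42048639-42048938, minus strand, lay under H3K27me3 in the same lists. CCND3 inner promoter, chr6:41941759-41942058, minus strand, lay under H3K4me3 in all 4 forms. The CDKN2A promoter of the ARF transcript, chr9:21995275-21995574, minus strand, lay under H3K4me3 in all 4 forms. The CDKN2A promoter of the INK4A transcript, chr9:21974808-21975107, minus strand, lay under neither mark in any form. The first CDKN2C promoter, chr1:50960495-50960794, plus strand, lay under H3K4me3 in WT, D1240A and F1295A. The second CDKN2C promoter, chr1:50968456-50968755, plus strand, lay under H3K4me3 in all 4 forms.
CDKN1A: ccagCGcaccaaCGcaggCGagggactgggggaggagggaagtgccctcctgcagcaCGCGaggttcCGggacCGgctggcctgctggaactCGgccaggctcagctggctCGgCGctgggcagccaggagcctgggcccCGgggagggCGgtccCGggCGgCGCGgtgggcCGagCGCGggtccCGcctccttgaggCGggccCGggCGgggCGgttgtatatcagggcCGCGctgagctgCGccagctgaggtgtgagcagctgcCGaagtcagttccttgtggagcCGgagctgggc
CCND3 outer: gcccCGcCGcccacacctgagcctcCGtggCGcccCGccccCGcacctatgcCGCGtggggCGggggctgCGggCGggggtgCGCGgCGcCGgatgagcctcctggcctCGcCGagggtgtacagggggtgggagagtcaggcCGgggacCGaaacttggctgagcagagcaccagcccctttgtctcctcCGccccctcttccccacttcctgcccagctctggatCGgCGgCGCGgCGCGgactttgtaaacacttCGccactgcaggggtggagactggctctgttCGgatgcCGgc
CCND3 inner: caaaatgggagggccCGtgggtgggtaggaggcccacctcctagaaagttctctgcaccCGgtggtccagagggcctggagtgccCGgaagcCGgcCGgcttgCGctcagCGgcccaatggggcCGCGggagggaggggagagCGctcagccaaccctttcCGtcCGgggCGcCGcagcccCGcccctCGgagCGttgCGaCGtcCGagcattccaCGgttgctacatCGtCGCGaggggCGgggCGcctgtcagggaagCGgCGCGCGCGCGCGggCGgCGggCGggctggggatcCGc
CDKN2A ARF: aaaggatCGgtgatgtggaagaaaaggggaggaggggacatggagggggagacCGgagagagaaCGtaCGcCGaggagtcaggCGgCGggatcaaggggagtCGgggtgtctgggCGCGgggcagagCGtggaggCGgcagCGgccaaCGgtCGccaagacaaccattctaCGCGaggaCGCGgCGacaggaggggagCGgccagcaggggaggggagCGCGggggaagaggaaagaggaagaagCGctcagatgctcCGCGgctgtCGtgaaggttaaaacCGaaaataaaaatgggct
CDKN2A INK4A: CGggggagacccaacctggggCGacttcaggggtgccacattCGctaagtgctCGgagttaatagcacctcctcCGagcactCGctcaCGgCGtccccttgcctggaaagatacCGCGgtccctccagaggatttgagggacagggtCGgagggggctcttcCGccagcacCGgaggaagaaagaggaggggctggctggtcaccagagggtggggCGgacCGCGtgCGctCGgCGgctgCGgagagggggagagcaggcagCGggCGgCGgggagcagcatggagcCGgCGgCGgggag
CDKN2C first: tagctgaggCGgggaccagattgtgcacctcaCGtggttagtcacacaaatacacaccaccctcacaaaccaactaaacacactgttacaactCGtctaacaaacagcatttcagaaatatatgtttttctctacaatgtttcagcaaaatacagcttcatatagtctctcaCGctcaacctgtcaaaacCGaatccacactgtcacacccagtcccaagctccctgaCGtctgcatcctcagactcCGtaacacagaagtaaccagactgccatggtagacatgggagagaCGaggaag
CDKN2C second: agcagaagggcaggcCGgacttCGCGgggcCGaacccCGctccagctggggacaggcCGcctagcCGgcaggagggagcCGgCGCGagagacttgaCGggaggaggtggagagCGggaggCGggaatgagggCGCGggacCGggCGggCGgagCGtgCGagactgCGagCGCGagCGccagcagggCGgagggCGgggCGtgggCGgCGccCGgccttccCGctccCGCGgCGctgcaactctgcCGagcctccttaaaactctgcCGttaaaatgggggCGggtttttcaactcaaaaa

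Of the 11 windows, 8 held more CG dinucleotides than the median of 22132 protein-coding promoter windows, which was 21, and 3 held fewer. The CDKN1A and outer CCND3 windows, which carried H3K27me3, had 29 each. The inner CCND3 window, which carried H3K4me3, had 37, and the ARF and INK4A windows had 28 and 26. The first CDKN2C window was the poorest of those shown, with 8 CG and 46.3% G+C, against 37 CG in the second. The windows not shown that fell below the median were a further CDKN2C window under H3K4me3 in all 4 forms, with 11 CG, and a CCND3 window under neither mark, with 3 CG. The motif GGGCGG, the core of the site read by SP1-type factors, was searched on both strands with overlapping matches counted. It occurred 4 times in the CDKN1A window, 5 and 4 times in the outer and inner CCND3 windows, 2 times in the INK4A window, 6 times in the second CDKN2C window and 0 times in the ARF window, and 56.3% of all windows hold it. The E-box CACGTG, which MYC and MAX bind, occurred 1 time in the first CDKN2C window and 0 times in the other 6 shown. It also occurred 1 time in the further CDKN2C window with 11 CG, and 8.34% of all windows hold it. These matches are descriptions of letters, not sites in use.

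H3K27me3 was present at 4 of the 10 genes in TKO and at the same 4 in WT, namely CCND1, CCND3, MYC and CDKN1A. It was present at 1 gene in D1240A, CDKN1A, through the edge of a peak centred outside the window, and at 0 in F1295A. Among all protein-coding genes the same rule called 18.4% for TKO and 16.1% for WT, with 9.36% for D1240A and 9.93% for F1295A. H3K4me3 was present at 7 of the 10 genes in TKO and D1240A and at 8 in WT and F1295A, where the background was 47.5% for TKO and 49.2% for D1240A, and 51.4% for WT and 52.1% for F1295A. CCND3 and MYC carried both marks in TKO and in WT, 2 genes in each against a background of 6.63% and 6.82%, and 0 genes carried both in D1240A (3.48%) or F1295A (4.14%). Over the genes that had H3K4me3, the median marked length was 6.46 kb for those of the 10 and 3.02 kb for all genes in TKO, 8.77 and 3.72 kb in WT, 8.48 and 3.77 kb in D1240A, and 9.07 and 4.18 kb in F1295A. For H3K27me3 it was 10.1 and 9.12 kb in TKO, and 5.60 and 9.96 kb in WT, so the members were not longer throughout. Windows differ in length, from 2.56 kb of record at CDKN1C to 115 kb at CCND3, and a longer window has more room for a peak. The CDKN2B window also takes in part of a peak at CDKN2A, so that H3K4me3 peak counts for both genes. CDKN2B gave the H3K4me3 median of the members in TKO and D1240A, and was a middle value in WT and F1295A. From the CDKN2A peak came 4473 of its 6463 bp in TKO and 5257 of its 8478 bp in D1240A.

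**Figure D1:**
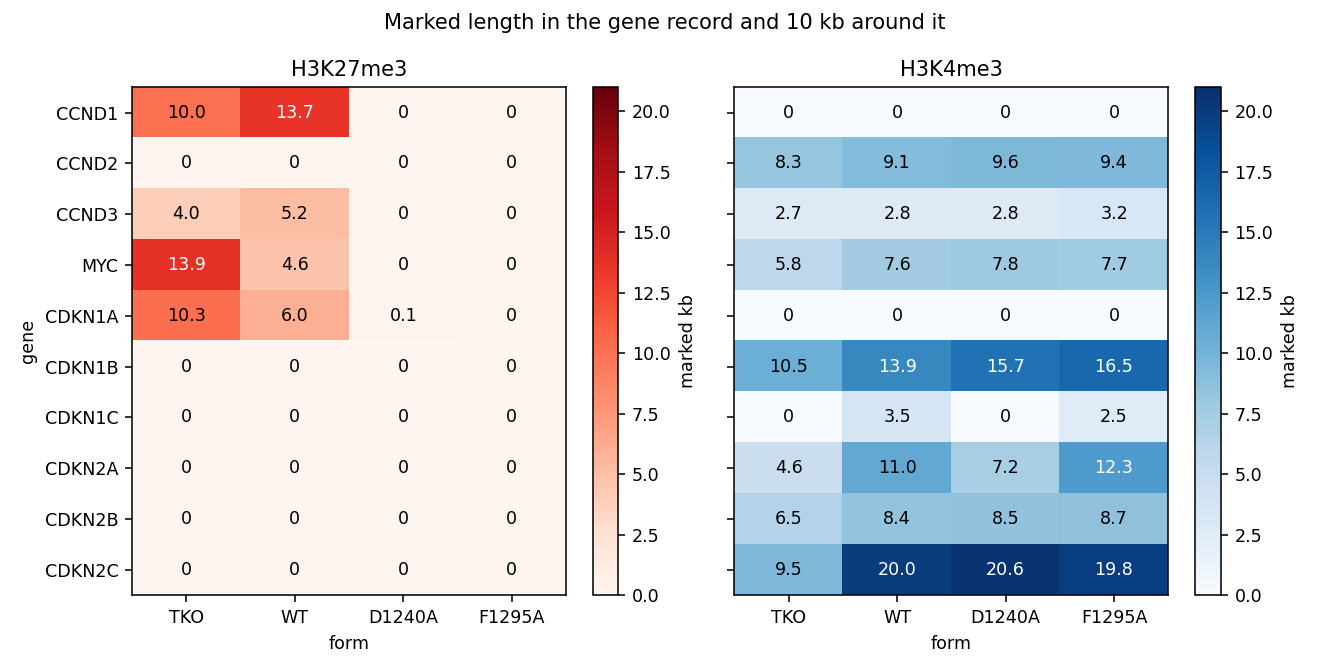
Marked length in kb (colour and number in each cell) in the record and 10 kb around it for the 10 genes (rows) in the 4 forms (columns), H3K27me3 on the left and H3K4me3 on the right. H3K27me3 stands in 4 rows and almost wholly in the TKO and WT columns, and CCND1 and CDKN1A have H3K4me3 in no column.

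CCND1 encodes cyclin D1, which the t(11;14) translocation activates in another class of myeloma. Its record is chr11:69641156-69654474. The H3K27me3 peak ran from 69642582 to 69652614 in TKO (10.0 kb) and from 69640201 to 69653884 in WT (13.7 kb), and the D1240A and F1295A lists had none in the window. The WT peak thus crossed the lower end of the record, where CCND1 transcription starts, by 955 bp, while the TKO peak began 1426 bp inside it. Both peaks met no other protein-coding record. Their total signal reached the 64.9th percentile among WT peaks and the 61.1th among TKO peaks, 100 being the strongest peak. CCND1 had no H3K4me3 in the window in any form. The nearest H3K4me3 peak lay 19.3 to 19.6 kb above the record in all 4 forms. The nearest H3K27me3 peak of D1240A lay 143 kb below the record, and that of F1295A 66.5 kb above it.

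CCND2, which encodes cyclin D2, showed the opposite picture. Its record is chr12:4273762-4305353. It carried a broad H3K4me3 peak across the lower end of the record, where its transcription starts, of 8.32 kb in TKO and 9.12, 9.56 and 9.45 kb in WT, D1240A and F1295A. These peaks stood at the 92.8th, 92.9th, 93.8th and 93.2th percentile by total signal and between the 97.5th and 99.6th by width. The peak began 5.0 to 5.42 kb before the record and ended 3.32 to 4.17 kb inside it, with little spread between forms. It also covered promoter windows of CCND2-AS1, an antisense gene that shares this end. No H3K27me3 peak was in the window, and the nearest lay 136 kb away in TKO and 949 to 959 kb away in the other forms.

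CCND3, which encodes cyclin D3, the D cyclin of normal B cell expansion, has promoters far apart, and the marks stood at different ones. Its record is chr6:41934933-42050035, read on the minus strand, and the outer and inner windows shown above lie 107 kb apart. H3K27me3 covered the outer promoter in TKO, from 42045406 to 42049387 (3.98 kb), and in WT, from 42045217 to 42050367 (5.15 kb). D1240A and F1295A had no H3K27me3 there, and their nearest peak lay 106 and 101 kb above the record. H3K4me3 covered the inner promoter in every form, with peaks of 2.715, 2.75, 2.775 and 3.232 kb in TKO, WT, D1240A and F1295A. The nearest H3K4me3 peak lay 105.5 to 105.8 kb from the outer promoter in the 4 forms, so both marks never met at a base of this gene. By total signal the H3K27me3 peak ranked at the 48.9th percentile in WT and at the 10.95th in TKO, while the H3K4me3 peak stood between the 61.7th and 68.0th in all 4. A further window of the table, at chr6:41939156-41939455, lay under neither mark.

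MYC had both marks over the same bases in TKO and WT. Its record is chr8:127735434-127742951, and transcription starts at the lower end. H3K4me3 began 1.64 to 1.81 kb before the record in all 4 forms and was 5.82 kb wide in TKO, 7.60 kb in WT, 7.85 kb in D1240A and 7.67 kb in F1295A, at the 83.3th to 88.8th percentile. H3K27me3 ran from 127735030 to 127739659 in WT (4.63 kb) and from 127735465 to 127739621 in TKO (4.16 kb). All of the WT stretch (4.63 kb) and 4.15 kb of the TKO stretch lay inside the H3K4me3 peak of the same form. Since each list comes from many cells and alleles, whether the marks sit on the same molecules was not tested. TKO had a further H3K27me3 peak of 9.79 kb that began 12 bp above the record, which WT did not have. The promoter peak was a low one, at the 36.1th percentile in WT and the 13.0th in TKO. In D1240A and F1295A no H3K27me3 peak lay near MYC, the nearest being 13291 kb above and 8519 kb below the record.

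CDKN1A encodes p21, the inhibitor that p53 induces. Its record is chr6:36676463-36687332. H3K27me3 covered its start region in TKO, from 36675754 to 36681257 (5.50 kb, 45.5th percentile), and in WT, from 36675429 to 36681396 (5.97 kb, 48.5th percentile), and this peak also covered the promoter of DINOL, a noncoding gene at the same locus. TKO had another peak of 4.59 kb beginning 1.93 kb above the record. A further peak, which met the record of RAB44, reached only into the edge of the window and lay 9.84 kb from the record in TKO, 9.93 kb in WT and 9.895 kb in D1240A, with 160, 72 and 106 bp inside. That edge is the only H3K27me3 of D1240A at CDKN1A. The peak that met RAB44 ranked at the 4.25th percentile in D1240A, the 32.4th in WT and the 55.0th in TKO. F1295A had a peak 16.4 kb below the record, outside the window. H3K4me3 was in no form within the window, and the nearest peak lay 78.6 to 78.7 kb below the record in all 4.

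**Figure D2:**
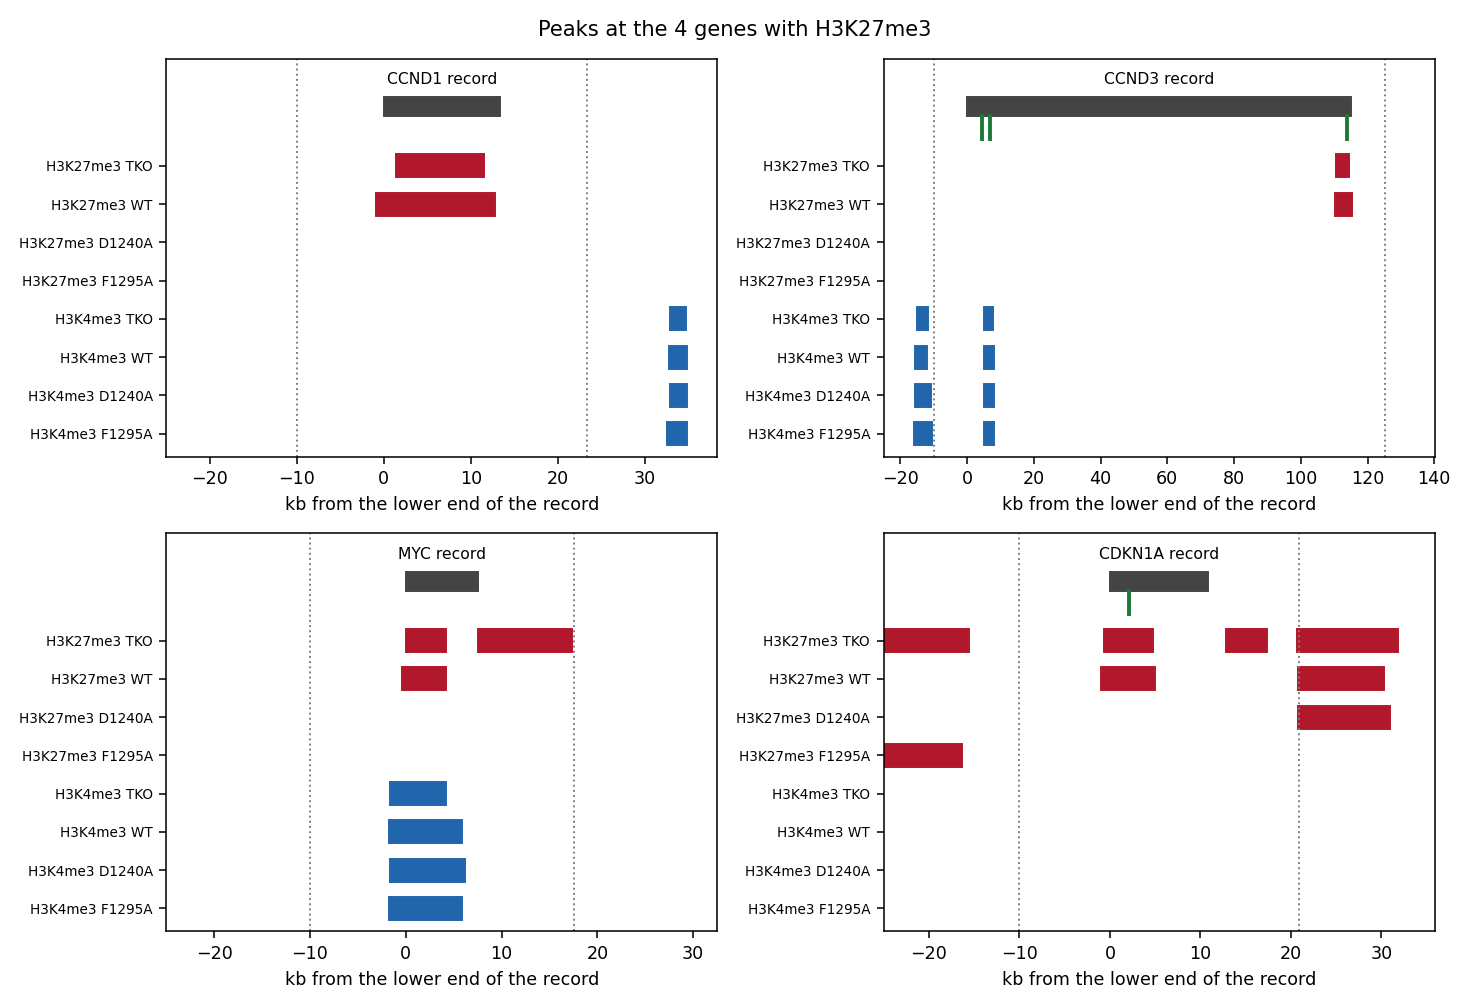
Peaks of H3K27me3 (red) and H3K4me3 (blue) at CCND1, CCND3, MYC and CDKN1A in the 4 forms, drawn to scale in kb from the lower end of each record (grey bar). Green ticks are RefSeq promoter windows, dotted lines the 10 kb limits, and peaks running past the axis are cut at its edge. Peaks on the record are red in TKO and WT only, at opposite ends of CCND3 from the blue ones and on top of them at MYC.

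Set against WT form by form, H3K27me3 at CCND1, CCND3 and MYC was called in neither mutant, and neither had the peak on the CDKN1A record, while H3K4me3 calls differed at CDKN1C only among the 10 genes. The pairs with WT share the WT lists, so a peak called there by chance counts in each. Between TKO and WT, 0 of 10 genes differed in H3K27me3, against a background of 4.36% of genes marked in TKO and not WT and 2.04% marked in WT and not TKO. CCND1, CCND3 and MYC were marked in WT and not D1240A, 3 of 10 against 6.89% of all genes, and 0 were marked in D1240A and not WT (0.145%). With CDKN1A, 4 of 10 were marked in WT and not F1295A, against 6.41%, and 0 in F1295A and not WT (0.235%). Between the mutants, CDKN1A alone was marked in D1240A and not F1295A (background 0.901%), through the 106 bp given above, and 0 in F1295A and not D1240A (1.47%). CCND1, CCND3 and MYC were thus in TKO and WT and in neither mutant, a pattern shown by 755 of 19974 genes (3.78%). No count has a p-value, because each form has 1 list per mark and so no replicate spread. The genes were also chosen with results of these lists known.

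For H3K4me3, CDKN1C alone differed, marked in WT and not TKO (background 4.21%), in WT and not D1240A (2.44%) and in F1295A and not D1240A (3.15%). With the stronger 50% of each list, 0 of the 10 genes differed in these 3 directions. With equal peak numbers, 0 were marked in WT and not TKO and 0 in WT and not D1240A, and CDKN1C was marked in F1295A and not WT. In the other directions 0 of 10 genes differed, where the background was 0.295% for TKO and not WT, 0.240% for D1240A and not WT, 1.48% for F1295A and not WT, 0.726% for WT and not F1295A, and 0.195% for D1240A and not F1295A.

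The H3K27me3 lists differed in length, TKO having 5881 peaks, WT 3790, D1240A 2188 and F1295A 2083, and the members' peaks were of middle or low rank. The WT list was therefore cut into 10 groups of 379 peaks by total signal, and the share of each group met by a peak of another form was counted. The MYC peak lies in a group of which 20.3% (exact 95% interval 16.4 to 24.7) were met in D1240A and 25.6% (21.3 to 30.3) in F1295A. For the group that holds CCND3 and CDKN1A the share was 40.4% (35.4 to 45.5) in both mutants. For the group that holds CCND1 it was 71.5% (66.7 to 76.0) in D1240A and 76.8% (72.2 to 80.9) in F1295A. Most WT peaks as weak as that of MYC were thus absent from both mutant lists, while CCND1 was among the 28.5% and 23.2% of its group that were not met. With the 2083 strongest peaks of each list, WT kept H3K27me3 at CCND1, CCND3 and CDKN1A, and TKO, D1240A and F1295A at 0 of the 10 genes. The share of all genes under this cut was not computed, so whether it is particular to these genes was not tested. Whether read depth or the threshold of each list has a part in these differences was not tested, since the depths are unknown.

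**Figure D3:**
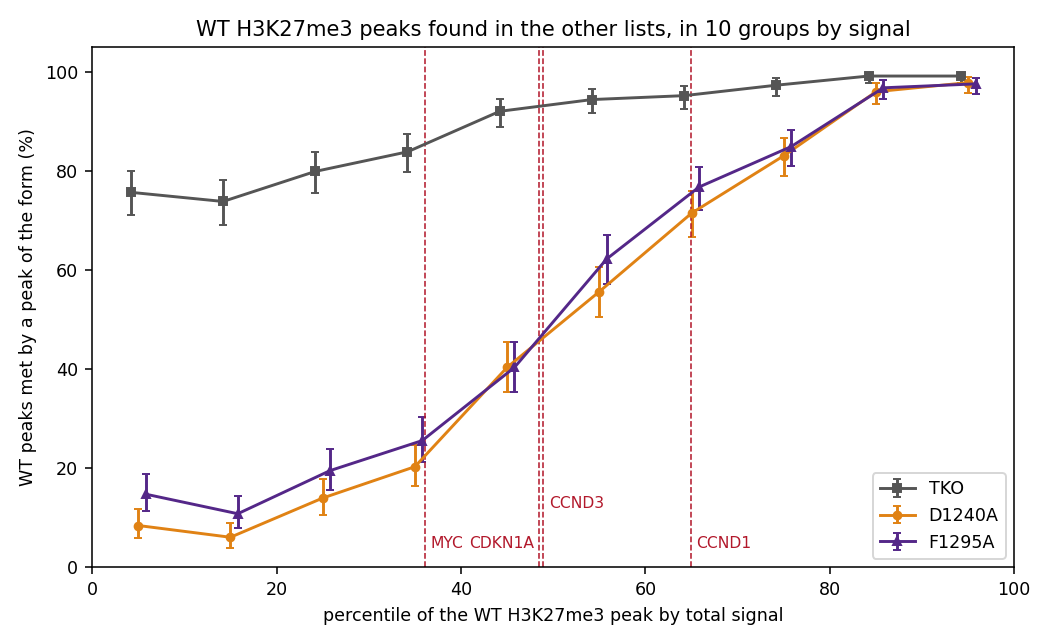
Share of WT H3K27me3 peaks met by at least 1 bp of a peak of TKO, D1240A or F1295A (vertical axis, %), in 10 groups by total signal in the WT list (horizontal axis, percentile; points offset slightly, bars are exact 95% intervals that cover counting error only). Dashed lines mark the WT peaks on the records of MYC, CDKN1A, CCND3 and CCND1, which sit from the 36.1th to the 64.9th percentile, where the share met climbs from 20.3% to 71.5% for D1240A and from 25.6% to 76.8% for F1295A.

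By marked length, the genes closest to each of these 4 were sought among genes with the same presence or absence in all 8 lists, at least 1 Mb away or on another chromosome. The measure was the Euclidean distance in marked kb over the 8 lists, which share their libraries between genes. CCND1 shared its pattern with 397 genes, the nearest being NLRX1 (distance 0.746 kb), KDF1 (0.844 kb) and CATSPER4 (1.19 kb). CCND3 and MYC had the same pattern, which each shared with 292 other genes. SERHL2 (0.594 kb), SLC44A2 (0.898 kb) and ZC3H7B (0.993 kb) were nearest to CCND3. TDRKH (3.88 kb), MMP24 (5.40 kb) and MYMX (5.97 kb) were nearest to MYC, at larger distances than for CCND1 or CCND3. CDKN1A shared its pattern with 77 genes, and MRC2 (4.25 kb), LOC124903671 (4.35 kb) and NCF4 (4.54 kb) came nearest. Its pattern includes D1240A only through the 106 bp at the window edge, where these neighbours had 0.708 to 1.936 kb. Without that edge CDKN1A would have the pattern of CCND1.

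The other CIP/KIP inhibitors carried no H3K27me3 in any form. CDKN1B encodes p27, and its record is chr12:12717368-12722369. A single H3K4me3 peak covered the whole record in WT (13.9 kb), D1240A (15.7 kb) and F1295A (16.5 kb), at the 96.1th to 96.8th percentile by total signal and above the 99.7th by width. In TKO the same stretch was called as separate peaks of 6.52 and 3.97 kb, at the 87.8th and 38.8th percentile. The joined peaks also covered the promoter of the neighbouring gene APOLD1 and met the record of GPR19, so their length is not that of CDKN1B alone. The same holds in TKO, where the 6.52 kb peak met GPR19 as well as CDKN1B. The 3.97 kb TKO peak began 0.939 kb above the CDKN1B record and met APOLD1 as its only protein-coding record. The nearest H3K27me3 peak lay 2350 to 5883 kb away.

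CDKN1C encodes p57, an imprinted inhibitor that is expressed from the maternal allele. Its record is chr11:2883218-2885775, and its transcription starts at the higher end. H3K4me3 was called from 2883625 to 2887080 in WT (3.46 kb) and from 2883677 to 2886178 in F1295A (2.50 kb), and TKO and D1240A had no peak in the window. These were among the weakest peaks of their lists, at the 1.63th and 11.02th percentile by total signal. In TKO and D1240A the nearest H3K4me3 peak lay 101.9 and 101.7 kb above the record. H3K27me3 was nearest at 279 to 280.2 kb in the 4 forms.

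The INK4 genes also had H3K4me3 and no H3K27me3 in every form. CDKN2A (chr9:21967752-21995324) encodes p16 and, from the outer promoter, ARF, which protects p53 from MDM2. CDKN2B (chr9:22002903-22009313) encodes p15. Their windows overlap, so the peak at the ARF promoter counts for both genes. That peak was 4.62 kb wide in TKO, 11.03 kb in WT, 7.15 kb in D1240A and 12.3 kb in F1295A, at the 95.3th to 97.5th percentile by total signal. Its lower edge reached into the gene to 18.6 kb above the lower end of the record in WT and 18.5 kb in F1295A, and only to 25.01 kb in TKO and 23.3 kb in D1240A. Nowhere did it reach the INK4A promoter, which stayed 11.3 kb from the nearest H3K4me3 base in WT, 11.1 kb in F1295A, 15.9 kb in D1240A and 17.7 kb in TKO. The ARF peak also covered promoters of CDKN2B-AS1, which is read in the opposite direction. CDKN2B had a peak of its own at its promoter, of 1.99, 3.89, 3.22 and 3.06 kb in TKO, WT, D1240A and F1295A, at the 41.05th to 52.1th percentile. The nearest H3K27me3 peak to CDKN2B lay 11169 to 12492 kb away.

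CDKN2C encodes p18, an inhibitor that acts in the last divisions of plasma cell differentiation. Its record is chr1:50960745-50974634. H3K4me3 at its second promoter formed a very wide peak of 16.9 kb in WT, 17.9 kb in D1240A and 16.9 kb in F1295A, above the 99.7th percentile by width in each list and at the 85.9th to 86.5th by total signal. Per base it was shallow, at the 1.68th, 1.27th and 4.18th percentile by mean signal. In TKO the stretch was called as peaks of 5.70 and 3.76 kb, at the 5.57th and 1.31th percentile by mean signal. The first promoter carried a further peak of 3.145 kb in WT, 2.75 kb in D1240A and 2.95 kb in F1295A. TKO had none there, and its nearest H3K4me3 base lay 5.97 kb away. FAF1 shares this end, and its promoter lay under the same peak. The peak was weak, at the 6.87th to 13.0th percentile. H3K27me3 was 907 to 940 kb away in the 4 forms.

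**Figure D4:**
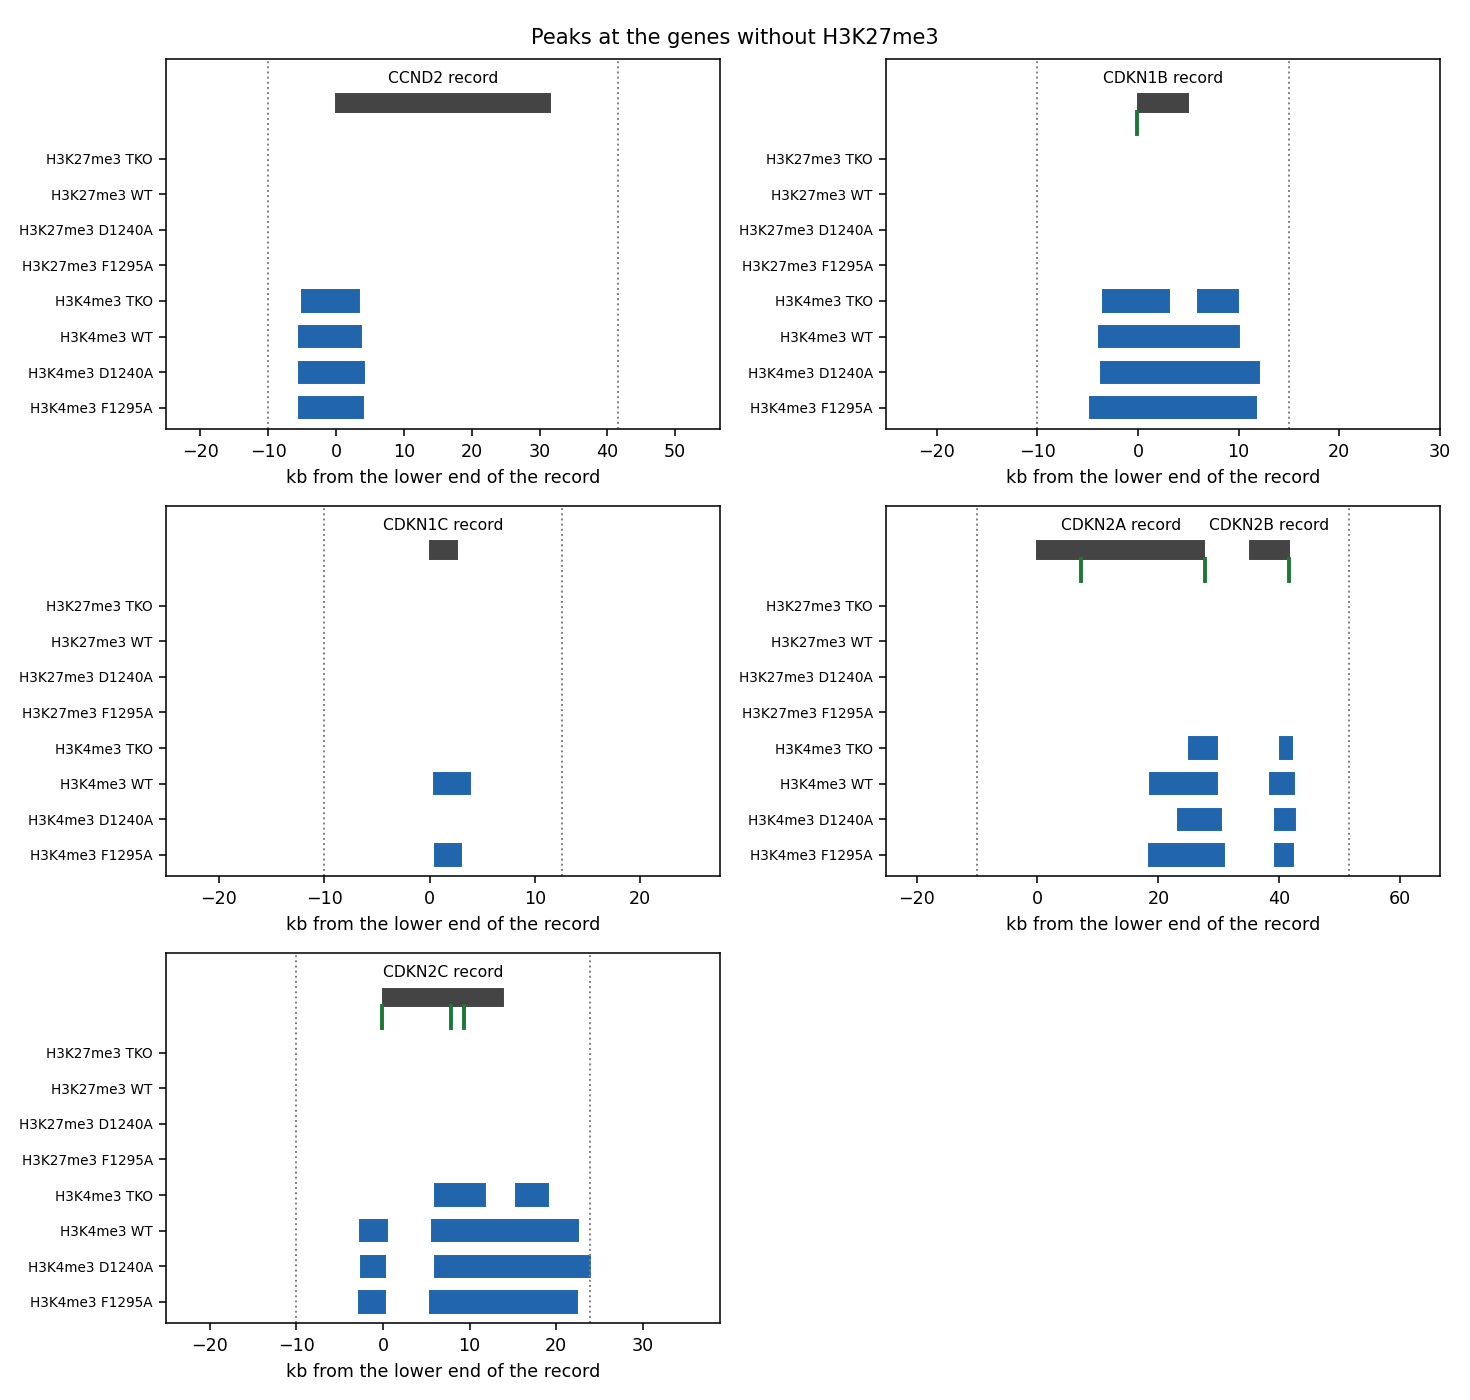
Peaks of H3K4me3 (blue) at CCND2, CDKN1B, CDKN1C, the CDKN2A and CDKN2B locus and CDKN2C in the 4 forms, in kb from the lower end of the first record (grey bars), with promoter windows as green ticks and dotted lines 10 kb from the records. The rows for H3K27me3 are empty in all panels. TKO has split or shorter peaks at CDKN1B, CDKN2A and CDKN2C, and no peak meets the inner CDKN2A tick.

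Median widths over whole H3K4me3 lists were 2.70 kb in TKO, 3.29 kb in WT, 3.35 kb in D1240A and 3.70 kb in F1295A. The marked length in TKO was the lowest of the 4 forms at each of the 7 genes that carried H3K4me3 there. The part of the narrower TKO list in those lengths was not tested.

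The wider G1 network was read by the same rule in 39 other genes: G1 cyclins and kinases, CDKN2D, pocket proteins and E2F factors, MYC partners, ubiquitin ligase parts that act on MYC, p27 and cyclins, and the p53 axis. H3K27me3 was present at 5 of 39 in TKO and in WT and at 4 of 39 in D1240A and F1295A, beside 18.4%, 16.1%, 9.36% and 9.93% of all genes in TKO, WT, D1240A and F1295A. CDK2, CDK6, AMBRA1 and MYCL carried it in all 4 forms. CDK6, a catalytic partner of D cyclins, had 6.80 to 7.23 kb, CDK2, the partner of cyclin E, 2.54 to 2.61 kb, and AMBRA1, which directs the destruction of D cyclins, 6.77 to 7.81 kb, and all 3 had H3K4me3 as well. These are lengths inside the window, and peaks that only reach its edge were not set apart for the network genes. MYCL, a relative of MYC, had 12.7 to 14.7 kb and no H3K4me3 in any form. E2F4, a repressive E2F factor, had 3.28 kb in TKO and 5.85 kb in WT and none in either mutant, as CCND1, CCND3 and MYC did. It was 1 of 39 network genes with this pattern, beside 3.78% of all genes, so the network as a whole did not follow those members. H3K4me3 was present at 35 of 39 in TKO and 37 of 39 in each other form, beside 47.5% to 52.1% of all genes. CCNA1, a cyclin mainly of the germ line, and MYCL lacked it throughout, and the repressor genes E2F6 and MGA lacked it in TKO only of the 4 lists.

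The labelled cell type was read from the same marks. The plasma cell factor genes IRF4, PRDM1 and XBP1 had H3K4me3 and no H3K27me3 in all 4 lists of each mark, and SDC1 had H3K27me3 in all forms with H3K4me3 in WT and F1295A. Of the markers of other cells, CD3E, CD3D and MS4A1 had no peak of either mark. PAX5 had no H3K4me3 and had 35.9 to 96.8 kb of H3K27me3 in the 4 forms. CSF1R had no H3K4me3, and had H3K27me3 in TKO, WT and F1295A but not in D1240A. BCL6 and CD14 had H3K4me3 in every form. BCL6 had H3K27me3 in WT only (6.73 kb), and CD14 had it in no form.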

How the data were processed

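H3K27me3 and H3K4me3 were measured by ChIPmentation in 4 forms of TKO cells. The submitters' processing notes name GRCh38 as the build and SEACR 1.3, Bowtie2 2.4.5, Trimmomatic 0.36 and FastQC 0.11.4 as tools. How SEACR was run (mode, control, threshold) is not given in the sources used here. The deposited values used are the total signal (coverage) per peak in 8 lists, with no scaling stated and no read totals, so depth is unknown. Per the labels, the H3K27me3 replicates of a form have 1 list in common. Signal was used only to rank peaks within a list. Windows were RefSeq gene records and 10 kb around them, and overlap of at least 1 bp counted. Marked kb, positions, percentiles, distances and exact 95% binomial intervals were computed in Python 3.11.15 with numpy 2.4.6, pandas 2.3.3, scipy 1.17.1 and matplotlib 3.10.9, and the interval steps were tested on simulated data. All 61 entries of the gene lists matched, and 1 marker gene is not reported here. No test between forms was run, so there are no p-values. The text names all 10 members, the network genes with H3K27me3 or without H3K4me3 in at least 1 form, the 3 genes most alike in marked kb for each member with H3K27me3, and genes under the same peaks. Members and lists were chosen with earlier results of these data known. Promoter sequences are RefSeq's, GRCh38.p14. Alternatives changed the window, the peaks kept, the overlap and the ranking.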

Additional observations from a re-analysis of the deposited data

How the results depend on the processing

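No paired analysis was possible because both H3K27me3 replicates of a form share a list and no test was run. In all, 28 counts of members (per list, with both marks, and between forms) were recomputed under 7 alternatives, and the ranking under 1. The shares of all genes were not recomputed under them. Keeping peaks at least 1 kb wide moved 0 of 28 counts by over 1.5 times. This setting could not move a count, since the narrowest peak in any window was 1.99 kb (CDKN2B, H3K4me3 in TKO). Reading the gene record alone, or asking for 500 bp of peaks in the window, left 0 members with H3K27me3 in D1240A, and 0 in D1240A and not F1295A, since 106 bp at CDKN1A decided both. With 25 kb around the record, F1295A had 1 member with H3K27me3 (CDKN1A), and 0 were in D1240A and not F1295A. Within 1 kb of either record end, D1240A had 0 members with H3K27me3 and 0 that F1295A lacked; both marks were at 1 member in TKO and 1 in WT; 1 member, CCND1, had H3K27me3 in WT and not TKO; and 2, CDKN1C and CDKN2C, had H3K4me3 in WT and not TKO. The stronger 50% of each list left H3K27me3 at 1 member in WT (CCND1), 0 in D1240A and 2 in TKO and not WT. These 2, MYC and CDKN1A, were kept by peaks off their records. MYC kept the 9.79 kb peak above its record, at the 55.9th percentile in TKO. CDKN1A kept 160 bp of the peak that met RAB44, at the 55.0th. The same cut left H3K27me3 at 1 in WT and not D1240A, 1 in WT and not F1295A, and 0 in D1240A and not F1295A. It left both marks at 1 in TKO and 0 in WT. H3K4me3 was left at 0 in WT and not TKO, 0 in WT and not D1240A, and 0 in F1295A and not D1240A. Equal peak numbers (2083 for H3K27me3, 7396 for H3K4me3) left H3K27me3 at 0 members in TKO, 0 in D1240A, 3 in WT and not TKO, and 0 in D1240A and not F1295A; both marks at 0 in TKO and 1 in WT; and H3K4me3 at 0 in WT and not TKO, 0 in WT and not D1240A, and 1 in F1295A and not WT (CDKN1C). So whether TKO or WT has more of these genes under H3K27me3 depended on which peaks were kept. Each had 4 by the main rule. TKO had 3 and WT 1 with the stronger 50%, and TKO had 0 and WT 3 with equal peak numbers. Under all 7 alternatives 0 members had H3K27me3 in a mutant and not WT. That 0 says little, since each mutant had at most 1 member with H3K27me3 under any alternative. By the main rule only 0.145% of all genes were marked in D1240A and not WT, and 0.235% in F1295A and not WT. Over 13 H3K27me3 and 35 H3K4me3 peaks in the windows, the median percentile was 45.5 and 84.3 by total signal, and 50.5 and 37.4 by mean signal. Depth is unknown and limits every absence given here.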
